A study of Homo sapiens with 6 samples.

Results

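The insulin-like growth factor (IGF) genes described here are the growth factor gene IGF2 with the 2 noncoding genes of its locus, IGF2-AS and H19, the receptor genes IGF1R, IGF2R and INSR, and the binding protein genes IGFBP2, IGFBP3, IGFBP4 and IGFBP5. They were chosen by symbol, with the difference between panobinostat and vehicle in view, and are 10 of the 22718 genes in the deposited tables. All 10 had enough counts to be tested. Since their choice used that difference, their own values are given as a description, with no p.

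RNA was sequenced from 6 libraries labelled HT1197, an established human bladder carcinoma line. The 3 panobinostat libraries (A, B and C) came from cells kept for 48 hours in panobinostat at 2 times the IC50 of the line; the drug inhibits histone deacetylases, enzymes that remove acetyl groups from histones. The 3 vehicle libraries (A, B and C) came from cells kept for 48 hours in 1% DMSO; one label field calls them untreated. All cells grew in medium with fetal bovine serum. The treatment protocol speaks of dishes seeded in triplicate and does not tie a library to a dish, so p-values measure the spread between these libraries, which may be technical.

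IGF2 is a secreted peptide related to insulin. It signals through the tyrosine kinases IGF1R and INSR, which act on insulin receptor substrates, PI3 kinase and AKT, whereas IGF2R carries it to lysosomes. The binding proteins hold the peptide outside the cell and set how much of it reaches a receptor. IGF2 and H19 are imprinted neighbours that share a control region bound by CTCF, and H19 RNA has long been studied as a marker of bladder carcinoma.

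Libraries held 13417898 to 18186087 counts. Of the 16084 genes tested over the whole table, 5416 rose and 5066 fell with panobinostat (edgeR's quasi-likelihood test, Benjamini-Hochberg adjusted p of 0.05 or less), which is 33.7% and 31.5%. The median log2 fold change over these genes was 0.01. Markers of urothelium were scarce: of 21 listed, 13 had a row, 11 of these averaged under 1 FPKM (fragment counts scaled to gene length and library size) in vehicle libraries, and UPK1B, FOXA1 and TP63 had 0 vehicle counts. The summed urothelial level was 43.8 to 54.4 CPM (counts scaled to library size with TMM factors) in panobinostat libraries and 38.0 to 51.3 CPM in vehicle libraries, most of it GATA3. By contrast, 11 of 12 sympathoadrenal markers averaged 10 FPKM or more in vehicle libraries, with MYCN at 579 ± 22.5 FPKM in panobinostat libraries and 832 ± 67.3 FPKM in vehicle libraries (SD, n = 3 each). Their summed level was 4425 to 4572 CPM with panobinostat, against 5618 to 6237 CPM with vehicle, with TH near 0. These values go against the label, and "libraries labelled HT1197" is used for that reason. The summed level of 7 fibroblast markers was 454 to 503 CPM with panobinostat, against 338 to 364 CPM with vehicle. Most of it was PDGFRA, which fell (266.4 CPM with panobinostat, 308.5 CPM with vehicle). The sum rose mainly through LUM (123 CPM with panobinostat, 2.05 CPM with vehicle) and COL1A1 (34.2 and 2.58 CPM). COL1A2 was at 0.202 and 0.145 CPM. Of 6 tested, 5 rose and 1 fell, and DCN, among the 5, had enough counts with panobinostat only. Endothelial markers summed to 3.43 to 3.75 CPM with panobinostat and 0.936 to 1.30 CPM with vehicle, leukocyte markers to at most 2.07 CPM with panobinostat and 2.09 CPM with vehicle, and hepatocyte markers to at most 0.911 CPM with panobinostat and 0.144 CPM with vehicle. How far a shift in the kinds of cells bears on the values below was not tested, and in bulk RNA fewer cells of a kind and less RNA per cell cannot be told apart.

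Of the 10 IGF genes, 8 lay past the threshold that 65.2% of all tested genes passed. H19, IGF2R, IGFBP2 and IGFBP3 were higher with panobinostat, and IGF2, IGF2-AS, INSR and IGFBP4 were lower. Because the genes were chosen for this contrast, nothing is read from the count. The same 8 had panobinostat and vehicle ranges that did not overlap, as did 68.8% of all tested genes. IGF1R and IGFBP5 were the other 2, with overlapping ranges.

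**Figure D1:**
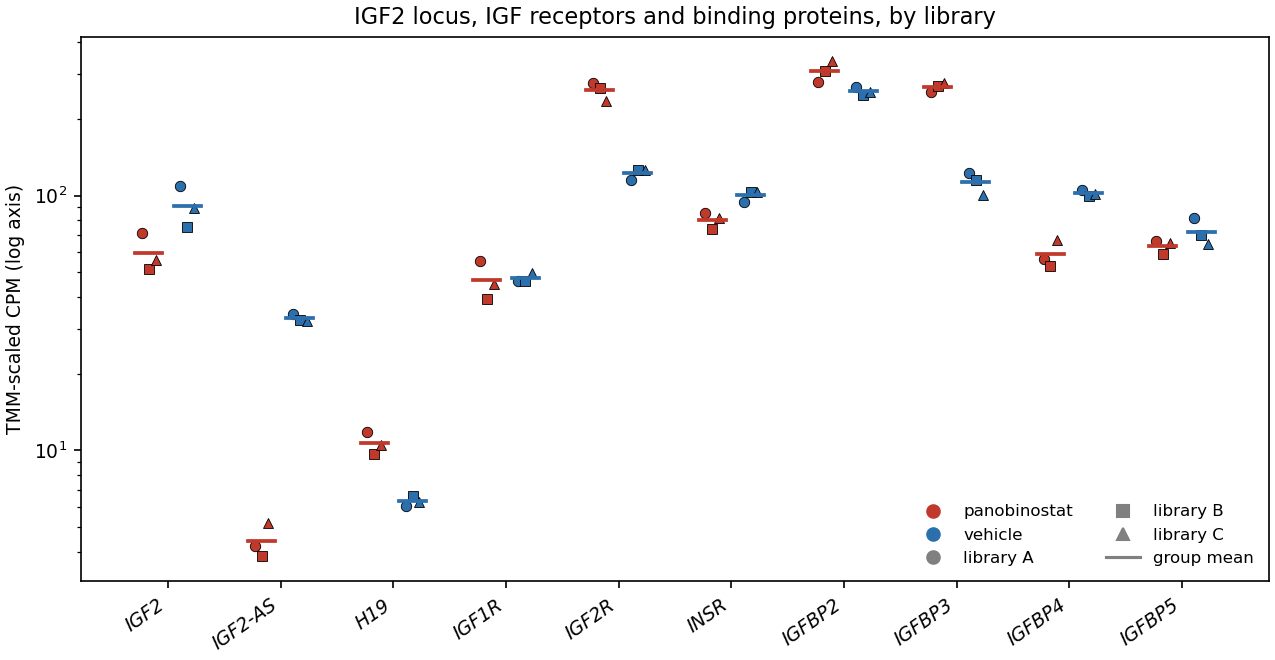
TMM-scaled CPM (log axis) of the 10 IGF genes in each panobinostat library (red) and each vehicle library (blue); marker shape gives the library letter and the short line the mean of 3 libraries. IGF2-AS shows the widest gap, at 3.84 to 5.20 CPM with panobinostat and 32.3 to 34.3 CPM with vehicle, and IGF1R and IGFBP5 overlap.

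The locus on chromosome 11 held the gene with the largest difference of the 10. IGF2-AS (ENSG00000099869, antisense, GRCh38 chr11:2140501-2148666, plus strand) is a noncoding transcript read against IGF2 from within that gene. Its level was 4.21, 3.84 and 5.20 CPM in panobinostat libraries A, B and C, against 34.3, 32.6 and 32.3 CPM in vehicle libraries A, B and C. Every panobinostat library lay far below every vehicle library; the SD was 15.8% of the mean with panobinostat and 3.35% with vehicle. The log2 fold change was -2.89 ± 0.12 (SE), a level 0.135 times that of vehicle, which had rank 31 from the lowest among the 16084 genes tested. A level lower by 2-fold or more and past the threshold was found for 5.27% of them. The values rest on 221 counts over the panobinostat libraries and 1592 over the vehicle libraries.

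IGF2 itself (ENSG00000167244, protein coding, GRCh38 chr11:2129112-2149603, minus strand) was also lower, but by much less. It had 71.1, 51.8 and 55.9 CPM in panobinostat libraries A, B and C, against 109, 75.0 and 89.5 CPM in vehicle libraries A, B and C. The highest panobinostat library came close to the lowest vehicle library without reaching it. Means were 59.6 ± 10.2 CPM with panobinostat and 91.1 ± 17 CPM with vehicle (SD, n = 3 each), and the log2 fold change was -0.61 ± 0.13 (SE). Leaving out 1 library at a time moved it between -0.75 and -0.48. IGF2 was the member with the widest relative spread among vehicle libraries, an SD of 18.6% of the mean.

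H19 (ENSG00000130600, processed transcript, GRCh38 chr11:1995176-2001470, minus strand) is the noncoding RNA of the locus that is usually made from the other parental copy than IGF2. It stood at 11.9, 9.70 and 10.6 CPM in panobinostat libraries A, B and C, against 6.06, 6.61 and 6.30 CPM in vehicle libraries A, B and C. All panobinostat libraries were above all vehicle libraries, opposite in direction to IGF2 and IGF2-AS. Its log2 fold change was 0.75 ± 0.13 (SE), from 527 counts with panobinostat and 306 with vehicle. Both levels were low beside IGF2.

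Per length, the balance within the locus differed between the groups. The ratio of IGF2 to IGF2-AS in FPKM was 7.74, 6.17 and 4.93 in panobinostat libraries A, B and C, against 1.45, 1.05 and 1.27 in vehicle libraries A, B and C. In vehicle libraries the antisense RNA was thus near the level of IGF2, at 11.1 ± 0.466 FPKM beside 14.0 ± 2.73 FPKM (SD, n = 3). The ratio of IGF2 to H19 ran the other way, at 2.71, 2.41 and 2.39 with panobinostat and 8.10, 5.12 and 6.42 with vehicle. The values of neither ratio overlapped between the groups.

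Overlapping transcripts limit the reading of IGF2. In GENCODE release 29, IGF2 shares 5144 of its 6979 exon bases (73.7%) with a second IGF2 gene model on the same strand, and 1460 bases (20.9%) with the read-through gene INS-IGF2. Neither has a row in the tables, and the counting was by an earlier annotation, so how reads of those exons were assigned was not tested. IGF2-AS shares 333 exon bases with IGF2 on the opposite strand, 4.77% of IGF2 and 11.6% of IGF2-AS. Counting was by strand, per the file headers, so those bases were told apart by strand. The microRNA gene MIR675 takes up 73 of the 2897 exon bases of H19, and MIR483 lies in an intron of IGF2; neither has a row.

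**Figure D2:**
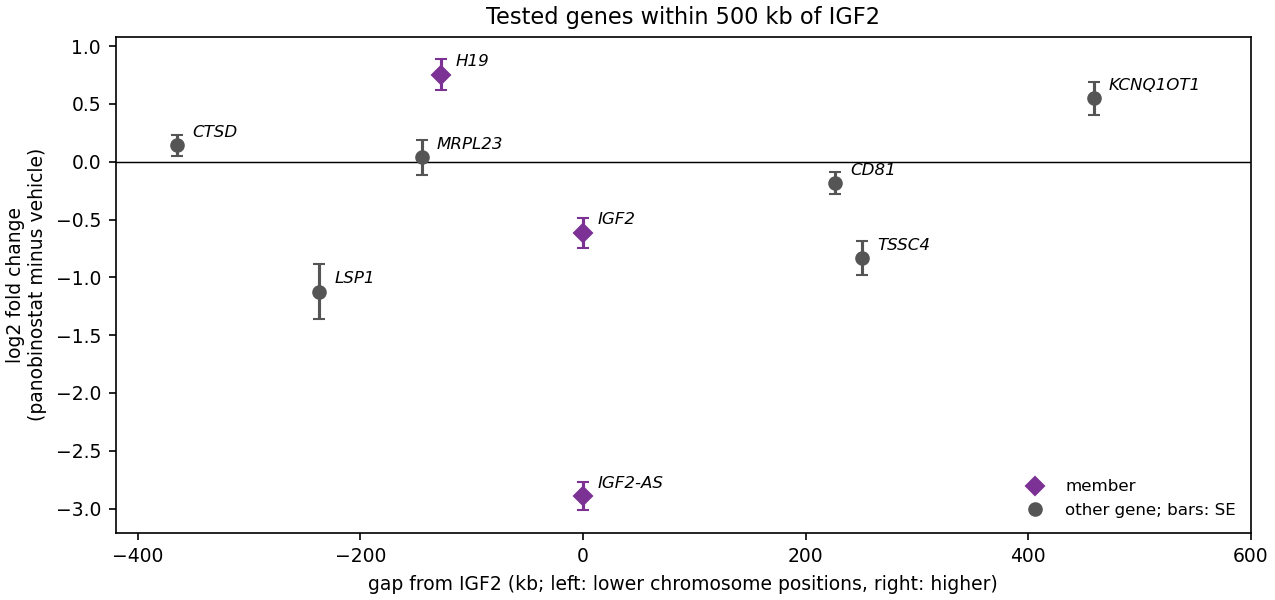
Log2 fold change (panobinostat minus vehicle, bars SE) of the tested genes within 500 kb of IGF2 against their gap from it in kilobases; diamonds are IGF genes and circles other genes. IGF2-AS at -2.89 lies well below all others, and the other genes have values on both sides of 0.

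Within 500 kb of IGF2, 15 further genes had a row and 6 had enough counts to be tested. Of these 1 rose, 2 fell and 3 did not pass, where 65.2% of all tested genes were called. With so few genes, nothing is read from the count. LSP1, a leukocyte cytoskeletal protein gene 237 kb away, fell (log2 fold change -1.12 ± 0.24 SE, edgeR adjusted p = 0.000729). The mitochondrial ribosome gene MRPL23, 145 kb away on the far side of H19, was 0.04 ± 0.15, and the tetraspanin gene CD81, 227 kb away, was -0.18 ± 0.10; neither passed, although CD81 did without panobinostat library C (-0.31). Beyond 250 kb, where genes were named after their values were seen, TSSC4 fell (-0.83 ± 0.15), the imprinted noncoding RNA KCNQ1OT1 rose (0.55 ± 0.14, a call lost with limma and no filter) and CTSD did not pass (0.14 ± 0.09), although it did with library size alone (0.26), upper quartile scaling (0.28) and limma. TH, the closest neighbour with a row, had 11 counts with panobinostat and 14 with vehicle and was not tested.

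Of the receptors, IGF2R had the largest difference. IGF2R (ENSG00000197081, GRCh38 chr6:159969099-160113507, plus strand) encodes the cation-independent mannose 6-phosphate receptor, which clears IGF2 and sorts lysosomal enzymes. It had 276, 265 and 234 CPM in panobinostat libraries A, B and C, against 115, 126 and 126 CPM in vehicle libraries A, B and C. The groups were far apart, with the lowest panobinostat library well above the highest vehicle library. The log2 fold change was 1.08 ± 0.08 (SE), a 2.11-fold higher level with panobinostat, and it lay between 1.03 and 1.21 under 16 other settings. A level higher by 2-fold or more and past the threshold was found for 16.8% of all tested genes.

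The 250 bases before the start of IGF2R, IGFBP3 and IGFBP4 are shown because these genes had the largest differences among the 8 members with a window in RefSeq (GRCh38.p14; IGF2 and IGF2-AS are named only). Capitals mark matches, on either strand, to the letters CACGTG, known as an E-box. They also mark the TATA box letters TATAAA on either strand. The third kind of match in capitals is the GC box GGGCGG, which reads reversed and complemented where it lies on the other strand. The letters were chosen after the sequences were seen, and a match is a description only.
IGF2R, chr6:159968832-159969081, plus strand: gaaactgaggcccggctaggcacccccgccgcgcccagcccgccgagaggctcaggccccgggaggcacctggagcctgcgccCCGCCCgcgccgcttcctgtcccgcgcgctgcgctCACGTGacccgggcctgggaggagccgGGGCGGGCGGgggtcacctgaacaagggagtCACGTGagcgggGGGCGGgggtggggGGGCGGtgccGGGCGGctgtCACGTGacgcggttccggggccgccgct
IGFBP3, chr7:45921273-45921522, minus strand: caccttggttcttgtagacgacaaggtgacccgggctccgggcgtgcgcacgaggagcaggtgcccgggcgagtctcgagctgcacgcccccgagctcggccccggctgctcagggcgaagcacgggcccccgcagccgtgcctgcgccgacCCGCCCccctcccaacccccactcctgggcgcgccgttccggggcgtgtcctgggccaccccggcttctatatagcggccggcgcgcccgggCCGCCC
IGFBP4, chr17:40443200-40443449, plus strand: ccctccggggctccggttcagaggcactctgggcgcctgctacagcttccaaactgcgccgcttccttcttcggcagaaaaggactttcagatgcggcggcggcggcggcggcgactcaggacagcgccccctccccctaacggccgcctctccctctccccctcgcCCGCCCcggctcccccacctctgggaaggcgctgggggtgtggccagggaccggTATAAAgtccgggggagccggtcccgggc
The IGF2R window holds 3 E-box matches, starting 132, 74 and 28 bases before the transcript start, and 6 GC box matches, 2 of which overlap each other. An E-box match occurs in 6.35% of the 35116 windows of this length, and 3 or more copies in 28 of them (0.0797%). The windows of IGF1R and INSR hold 0 E-box matches. IGFBP3 has 2 GC box matches, where 42.6% of windows have at least 1, and its RefSeq start lies inside the longer GENCODE gene. IGFBP4 has 1 TATA box match, 29 to 24 bases before the start, a match found in 10.7% of windows, and 1 GC box match. The CCAAT box, searched likewise and found in 32% of windows, is in none of the 3. Over all 10 windows of the 8 genes the G and C content ran from 56.4% to 81.2%, with IGF2R at 79.2%, against a median of 58% over all windows.

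IGF1R (ENSG00000140443, GRCh38 chr15:98648539-98964530, plus strand), the main signalling receptor for IGF2, had 55.5, 39.4 and 45.1 CPM in panobinostat libraries A, B and C, against 46.4, 46.1 and 49.5 CPM in vehicle libraries A, B and C. The panobinostat libraries lay on both sides of the vehicle range. Means were 46.6 ± 8.15 CPM with panobinostat and 47.3 ± 1.89 CPM with vehicle (SD, n = 3 each) and the log2 fold change was -0.03 ± 0.11 (SE). Its sign was positive under 9 and negative under 7 of 16 other settings, and none put it past the threshold.

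INSR (ENSG00000171105, GRCh38 chr19:7112255-7294034, minus strand), the insulin receptor, stood at 85.6, 73.6 and 81.6 CPM in panobinostat libraries A, B and C, against 94.6, 103 and 104 CPM in vehicle libraries A, B and C. All panobinostat libraries were below all vehicle libraries, by a small margin. The log2 fold change was -0.32 ± 0.08 (SE), and it came to -0.19 with upper quartile scaling. The tables give 1 value per gene, so the INSR forms that differ in their affinity for IGF2 were not told apart.

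As a share of the summed receptor FPKM, IGF2R made up 60.1%, 64.1% and 58.5% in panobinostat libraries A, B and C, against 38.3%, 39.0% and 38.4% in vehicle libraries A, B and C. INSR made up 27.0% ± 1.89 with panobinostat and 45.0% ± 0.287 with vehicle, and IGF1R 12.1% ± 1.44 with panobinostat and 16.4% ± 0.651 with vehicle (SD, n = 3 each). The most abundant receptor transcript was therefore IGF2R in each panobinostat library and INSR in each vehicle library. The sum was 29.6 ± 2.36 FPKM with panobinostat and 20.5 ± 0.767 FPKM with vehicle, without TMM factors. IGF2R exceeded IGF1R by a ratio of 5.11 ± 0.866 with panobinostat and 2.35 ± 0.117 with vehicle, in FPKM.

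**Figure D3:**
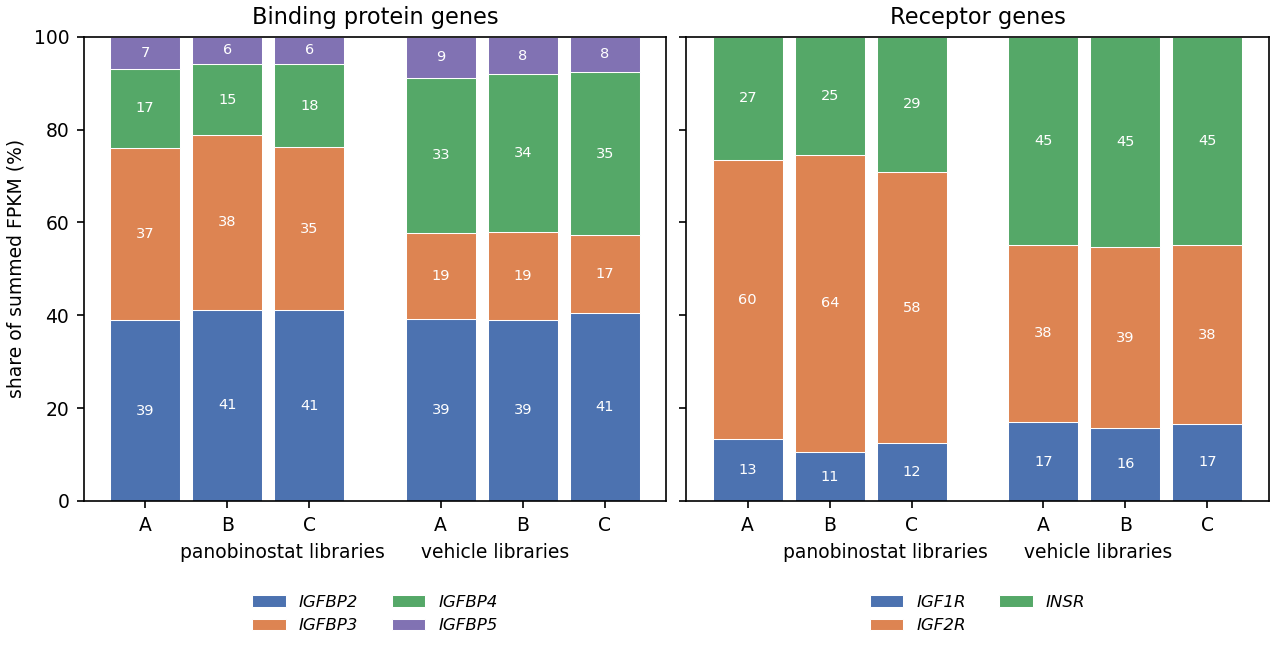
Share of the summed FPKM (percent) taken by each of 4 binding protein genes (left) and each of 3 receptor genes (right), with 1 stacked bar per library, panobinostat left of vehicle. IGFBP3 and IGF2R take larger shares in each panobinostat library, and IGFBP4 and INSR larger shares in each vehicle library.

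Among the binding proteins, IGFBP3 and IGFBP4 differed most, in opposite directions. IGFBP3 (ENSG00000146674, GRCh38 chr7:45912245-45921874, minus strand) encodes the main carrier of IGFs in blood, and had 255, 268 and 276 CPM in panobinostat libraries A, B and C, against 122, 115 and 101 CPM in vehicle libraries A, B and C. The groups were well apart. The log2 fold change was 1.24 ± 0.08 (SE), or 2.37-fold higher with panobinostat, and stayed between 1.16 and 1.38 under 16 other settings.

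IGFBP4 (ENSG00000141753, GRCh38 chr17:40443461-40457731, plus strand), a binding protein that inhibits IGF action until the protease PAPPA cuts it, had 56.2, 52.8 and 67.2 CPM in panobinostat libraries A, B and C, against 105, 100 and 102 CPM in vehicle libraries A, B and C. Vehicle libraries were nearly alike, and all panobinostat libraries were below them. Its log2 fold change was -0.80 ± 0.09 (SE), a level 0.576 times that of vehicle. PAPPA itself had 11 counts with panobinostat and 0 with vehicle, and was not tested.

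IGFBP2 (ENSG00000115457, GRCh38 chr2:216632828-216664436, plus strand), a binding protein that prefers IGF2, had 279, 307 and 336 CPM in panobinostat libraries A, B and C, against 267, 248 and 255 CPM in vehicle libraries A, B and C. The gap between the groups was narrow, with panobinostat library A just above vehicle library A. The log2 fold change was 0.26 ± 0.08 (SE), and without panobinostat library C it was 0.20 and no longer past the threshold. IGFBP5 (ENSG00000115461, GRCh38 chr2:216672105-216695525, minus strand), a binding protein that also attaches to extracellular matrix, lies 7668 bases beyond the end of IGFBP2 and runs towards it. It had 66.5, 59.2 and 65.1 CPM in panobinostat libraries A, B and C, against 81.7, 69.7 and 64.6 CPM in vehicle libraries A, B and C. These ranges overlapped through vehicle library C, and the log2 fold change of -0.18 ± 0.09 (SE) became -0.26 and past the threshold without that library. On the opposite strand, AC007563.2 shares 298 exon bases with IGFBP5, 4.63% of those of IGFBP5.

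In each panobinostat library the share of the summed binding protein FPKM taken by IGFBP3 was larger than in any vehicle library, at 37.2%, 37.5% and 35.2% against 18.7%, 18.9% and 16.7% in libraries A, B and C. IGFBP4 took 17%, 15.4% and 17.8% in panobinostat libraries and 33.3%, 34.1% and 35.1% in vehicle libraries. IGFBP3 thus followed IGFBP2 in panobinostat libraries and IGFBP4 followed it in vehicle libraries, while IGFBP2 held 40.4% ± 1.29 with panobinostat and 39.6% ± 0.870 with vehicle (SD, n = 3 each). IGFBP5 was the smallest of the 4 in both groups, at 6.22% ± 0.567 with panobinostat and 8.19% ± 0.631 with vehicle. The sum over the 4 genes was 165 ± 9.69 FPKM with panobinostat and 131 ± 7.03 FPKM with vehicle, without TMM factors.

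Ordered by mean FPKM, the panobinostat libraries ran IGFBP2 (66.9), IGFBP3 (60.5), IGFBP4 (27.7), IGF2R (18.0), IGFBP5 (10.3), IGF2 (9.89), INSR (7.97), H19 (3.93), IGF1R (3.58) and IGF2-AS (1.60). Neighbours whose ranges overlapped in that order were IGFBP2 and IGFBP3, IGFBP5 and IGF2, and H19 and IGF1R. In vehicle libraries the order was IGFBP2 (51.8), IGFBP4 (44.6), IGFBP3 (23.7), IGF2 (14.0), IGF2-AS (11.1), IGFBP5 (10.8), INSR (9.23), IGF2R (7.90), IGF1R (3.37) and H19 (2.15). There the overlapping neighbours were IGF2 and IGF2-AS, and IGF2-AS and IGFBP5. IGF2R stood above IGFBP5, IGF2 and INSR with panobinostat and below all of them with vehicle, and IGF2-AS was last with panobinostat but above both IGF1R and H19 with vehicle.

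The libraries of a group did not take one order across the 10 genes. Panobinostat library A was the highest of its group for 6 of them, IGF2, H19, IGF1R, IGF2R, INSR and IGFBP5, and the lowest for IGFBP2 and IGFBP3. Panobinostat library B was the lowest for 7. Vehicle library A was the highest of its group for 6, among them IGF2 and all 4 binding protein genes. The SD ran from 3.85% (IGFBP3) to 17.5% (IGF1R) of the mean with panobinostat and from 2.41% (IGFBP4) to 18.6% (IGF2) with vehicle.

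The genes whose profile over the 6 libraries lay closest to a member were found by the root mean square distance of centred log2(CPM + 1), over 9921 genes. The closest genes of so many lie below the median distance by selection, so the medians are given for scale only. For IGF2-AS they were ADRA2A (0.0757), CLMP (0.0843) and SPOCK2 (0.0904), against a median distance of 1.28 over all genes. Their log2 fold changes were -2.78, -2.78 and -3.04, so the likeness mostly restates the difference between panobinostat and vehicle. For IGF2 they were PATL1 (0.0520), CASP2 (0.0593) and ENTREP3 (0.0658), against a median of 0.353. IGFBP2 was closest to OSTC (0.0269), FKBP8 (0.0273) and LAPTM4B (0.0320), and IGFBP5 to SUPT20H (0.0257), RNF185 (0.0395) and C2orf68 (0.0427), with medians of 0.277 and 0.234.

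Beyond the 10 genes, 7 lists of the pathway named 154 genes, of which 127 were tested. Of these 44 rose, 48 fell and 35 did not pass, so 72.4% were called, near the 65.2% of all genes, with a median log2 fold change of -0.04. None of the 10 ligand genes of the insulin family, IGF1, INS and INS-IGF2 among them, had a row; no level can be read from the lack of a row. Of the tested genes, 4 in these lists (IGFBP6, SGK1, EGR1 and IGF2BP2) had fewer than 10 counts in every vehicle library. They had enough counts with panobinostat only, and so did PLAG1, with 5 counts in vehicle library A. SOCS1, with 34 counts over the vehicle libraries (0.685 ± 0.407 CPM) and 76 over the panobinostat libraries, likewise had enough with panobinostat only. With upper quartile scaling fewer genes fell: 3 of the adaptors and brakes, 10 of the PI3K-AKT-mTOR list and 4 of the sorting list, against 6, 16 and 7. In the sorting list 8 genes rose with that scaling, against 5.

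Among other binding proteins and their proteases, 6 of 9 tested genes rose and 2 fell, where 33.7% of all tested genes rose and 31.5% fell; the list's median log2 fold change was 0.45. One of the 6, IGFBP6, passed the count filter through the panobinostat libraries only. IGFBPL1, a relative of the binding proteins, fell to 66.1 ± 8.40 CPM with panobinostat, against 152 ± 8.36 CPM with vehicle (log2 fold change -1.20 ± 0.09 SE, edgeR adjusted p = 3.07e-08). STC1, which blocks PAPPA, rose to 30.6 ± 5.00 CPM, against 14.3 ± 2.12 CPM with vehicle (1.10 ± 0.13, edgeR adjusted p = 3.80e-06). The proteases ADAM9 and ADAM12 each rose by 0.56 on the log2 scale. STC2, the other stanniocalcin, fell (-0.35 ± 0.11), a call lost with library size alone, upper quartile scaling and limma, so that 1 gene of the list fell under these. IGFBP6, which prefers IGF2, had 39 counts with panobinostat and 2 with vehicle, so that the ratio lay between 4.91 and 162 (95% counting interval). PAPPA2 had 13 counts with panobinostat and 6 with vehicle and was not tested; IGFBP1, IGFBP7 and IGFALS had no row.

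Downstream of IGF1R and INSR, 12 of 26 tested adaptors and brakes rose and 6 fell, so 69.2% were called, near the 65.2% of all tested genes. SOCS1, among the 12, passed the count filter through the panobinostat libraries only. The substrates IRS1 (log2 fold change 0.74 ± 0.12 SE) and IRS2 (0.82 ± 0.09) both rose, with edgeR adjusted p of 9.64e-05 and 1.18e-06; IRS4 had no row. The receptor brakes SOCS3 (2.07 ± 0.16) and GRB14 (1.88 ± 0.14) and the ubiquitin ligase NEDD4 (1.48 ± 0.12) rose, whereas the brake SOCS2 fell (-1.72 ± 0.08). DOK4 (-0.05 ± 0.09) and PTPN11 (0.15 ± 0.08), the most abundant of the list, did not pass, although PTPN11 did with library size alone (0.26), upper quartile scaling (0.29) and limma. In the PI3K-AKT-mTOR list 9 of 37 rose and 16 fell, so 67.6% were called, again near the 65.2% of all tested genes. FOXO1, a transcription factor held in check by AKT, rose to 28.9 ± 4.20 CPM with panobinostat, against 2.05 ± 0.222 CPM with vehicle (3.81 ± 0.16, edgeR adjusted p = 5.16e-11). The kinase subunit gene PIK3CD (3.43 ± 0.24), the phosphatase gene INPP4B (1.71 ± 0.20) and RPS6 (0.44 ± 0.08) rose as well. EIF4EBP1 (-0.79 ± 0.07) and AKT1S1 (-0.88 ± 0.12) fell. Of 18 FOXO targets 77.8% were called: 8 rose, with BCL6 (3.03 ± 0.19) and BBC3 (1.37 ± 0.22) among them, and 6 fell, with CAT (-0.95 ± 0.09), TXNIP (-0.70 ± 0.07) and CDKN1B (55.1 CPM with panobinostat, 111 CPM with vehicle) among them.

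Of 18 tested genes of mannose 6-phosphate sorting, the other task of IGF2R, 5 rose and 7 fell, so 66.7% were called, near the 65.2% of all tested genes. With limma 3 fell. M6PR, the cation-dependent mannose 6-phosphate receptor, was 71.8 ± 1.89 CPM with panobinostat and 67.1 ± 3.24 CPM with vehicle. It did not pass (0.10 ± 0.07), although it did with library size alone (0.21), upper quartile scaling (0.24) and limma. GNPTAB, whose enzyme adds the sorting tag, rose (1.25 ± 0.08) and NAGPA, whose enzyme uncovers it, fell (-1.46 ± 0.17). PLAUR, the urokinase receptor, which binds IGF2R, fell (-1.66 ± 0.13). GGA2 (-0.72 ± 0.07) and AP1B1 (-0.32 ± 0.08), coat adaptors, fell too, the second not with upper quartile scaling or limma, and AP1S1 rose (0.57 ± 0.09).

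Of 19 tested regulators of IGF2 and H19, 4 rose and 11 fell, where 33.7% of all tested genes rose and 31.5% fell; the list's median log2 fold change was -0.31. Of the 4, EGR1, IGF2BP2 and PLAG1 passed the count filter through the panobinostat libraries only. All 4 averaged under 1 FPKM over the 6 libraries, so limma at 1 FPKM did not test them, and 1 other gene rose there. CTCF fell to 105 ± 12.7 CPM with panobinostat, against 207 ± 12.9 CPM with vehicle (-0.97 ± 0.09, edgeR adjusted p = 2.03e-07), and its germline relative CTCFL rose (1.98 ± 0.17). IGF2BP1, which binds IGF2 mRNA, fell to 103 ± 5.67 CPM, against 357 ± 11.9 CPM with vehicle (-1.80 ± 0.07, edgeR adjusted p = 5.16e-11). IGF2BP3 (-0.96 ± 0.07) and LIN28B (-1.41 ± 0.08) fell as well, while IGF2BP2 had 60 counts with panobinostat and 3 with vehicle, a ratio between 6.35 and 97.1 (95% counting interval). PLAG1, an activator of the IGF2 promoter, rose (3.08 ± 0.30, with 30 counts over the vehicle libraries, 5 of them in library A). EGR1 had 130 counts with panobinostat and 19 with vehicle. TRIM28 fell (-0.48 ± 0.08) and SMC3 did not pass (-0.20 ± 0.09, edgeR adjusted p = 0.0543), although it did under 4 other settings.

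**Figure D4:**
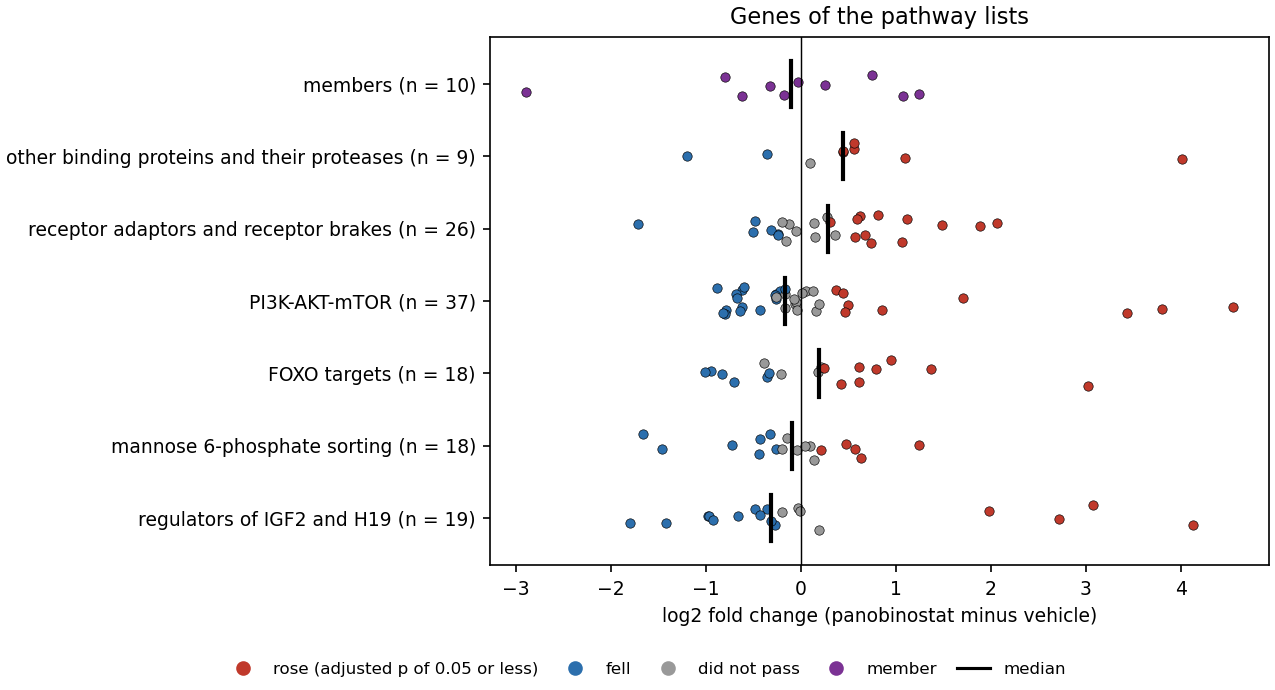
Log2 fold change (panobinostat minus vehicle) of each tested gene of the IGF set and of 6 pathway lists. Color gives the call for list genes, IGF genes are all purple, and the vertical bar gives the median of each row. Each list holds genes on both sides of 0, with medians between -0.31 and 0.45, and IGF2-AS at -2.89 is the lowest point.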

How the data were processed

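Counts per gene were deposited by the authors, who, per the file headers, ran featureCounts 1.5.0-p3 (version 1.5.1, Novoalign 2.8, Subread and hg38 per the submitters' processing notes), by strand and on Ensembl release 84. The header of the counts names 9 alignment files, more than the 6 libraries described here. The sources used here do not say how the authors chose which genes to list. The FPKM deposited by the authors matched, within 1%, a count divided by library total and a length derived per gene, for all 64991 values from 100 counts upwards. CPM and FPKM thus come from the same counts but differ in scaling. CPM used TMM factors (1.03 to 1.05 for panobinostat, 0.956 to 0.971 for vehicle) and FPKM did not. Between the groups, FPKM therefore sits somewhat higher for panobinostat than CPM does. IGF1R, for example, averaged 46.6 and 47.3 CPM but 3.58 and 3.37 FPKM with panobinostat and vehicle. Shares and ratios within a library do not depend on these factors. Symbols and coordinates came from GENCODE release 29, promoters from RefSeq.

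The 6 libraries were grouped by title. Counts were tested with edgeR 4.0.16 in R 4.3.3 (filterByExpr with a minimum count of 10 and total of 15, TMM, quasi-likelihood test, Benjamini-Hochberg adjustment over 16084 genes, threshold 0.05). The steps were also run on simulated data in which few genes changed, evenly up and down. Most genes were called here, so that run does not bear on the scaling or the share of calls. The SE is the size of the log2 fold change divided by the square root of F. Counting intervals cover counting error only.

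The 10 genes and the lists were chosen with earlier results of these data known. Each list gave at most 4 named genes, those past the threshold that changed most among genes averaging at least 1 CPM, besides its 2 highest by FPKM and fixed genes of the pathway. From the surroundings of IGF2, all tested genes within 250 kb were named. TSSC4, KCNQ1OT1, CTSD, TH, AC007563.2, SGK1 and SOCS1 were named after their values were seen. Not every gene the rule takes is described. Alternatives used DESeq2 1.42.0, limma 3.58.1 on log2(FPKM + 1) and log2(FPKM + 0.1), other scalings and filters, the letter as a block, a threshold of 0.01, and each library left out.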

Additional observations from a re-analysis of the deposited data

How the results depend on the processing

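Direction was the same under all 16 alternatives for 9 of the 10 IGF genes; IGF1R changed sign. With limma on log2(FPKM + 1), with and without a filter at 1 FPKM, IGF2-AS came to -2.22, against -2.89. INSR came to -0.19 with upper quartile scaling and with that limma fit, against -0.32. Without the filter, IGF2 (-0.46) and INSR were not past the threshold. Library size alone and upper quartile scaling moved the median log2 fold change by 0.11 and 0.14, and the share of calls that were higher to 61.0% and 63.2%, against 51.7%; limma without a filter gave 64.7%. Over the pathway lists, 48 genes fell, against 31 with limma at 1 FPKM (either pseudocount) and 29 without a filter. Near IGF2, 2 genes rose, against 1, with library size alone, upper quartile scaling and limma without a filter, and 1 fell, against 2, with limma at 1 FPKM. Leaving out each library gave 5026 to 5575 genes that rose and 4542 to 5093 that fell, 7 to 9 IGF genes past the threshold, 39 to 44 list genes that rose and 41 to 53 that fell, and near IGF2 1 that rose and 2 to 3 that fell. Libraries of the same letter did not all deviate together (correlations over genes of 0.103, -0.0354 and 0.159), so the letters were not taken as pairs; with the letter as a block 5432 genes rose and 5109 fell, 8 IGF genes lay past the threshold, and the lists gave 44 and 49. Depth limits the genes with few counts, such as IGFBP6, IGF2BP2 and PAPPA.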
